A study of Rattus norvegicus with 45 samples.

Results

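The interaction of heroin and vector measured whether heroin self-administration (SA) changed gene expression in the ventral tegmental area (VTA) differently in rats given the H3.3Q5A vector than in rats given H3.3 WT. For each gene it is the heroin minus saline difference in H3.3Q5A rats minus the heroin minus saline difference in H3.3 WT rats. A positive value therefore means that heroin vs. saline was higher in H3.3Q5A than in H3.3 WT rats, and a negative value that it was lower. The comparison used 8 heroin and 7 saline rats with H3.3Q5A and 7 heroin and 7 saline rats with H3.3 WT, 29 of the 45 libraries of the series. Of the 32883 genes in the table, 21745 were above its lowest value, which stands for no read, in at least 7 of these libraries and were tested. All rats were male wild-type Sprague-Dawley animals with 10 d of heroin or saline SA, a virus into the VTA on day 11 and 30 d of abstinence before the tissue was taken. The vectors, all marked with GFP, were empty or expressed H3.3 in its wild-type form or with the Q5A substitution. The virus is called lentiviral in the deposited descriptions and adeno-associated in the study's methods, and the promoter is not given in the sources used here. Each library is polyA RNA from the GFP-bearing VTA of 1 rat, so it can hold RNA of infected and uninfected cells. A further saline library, whose title names H3.3Q5A and whose treatment names H3.3 WT, was left out.

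H3.3 is the variant of histone H3 that is incorporated independently of DNA replication and that accumulates in neurons, which no longer divide. Transglutaminase 2, encoded by Tgm2, can attach dopamine to the glutamine at position 5 of the H3 tail, beside a lysine whose trimethylation marks active promoters. In H3.3Q5A an alanine takes the place of that glutamine, so the expressed histone cannot carry the mark, and H3.3 WT serves as the control for added H3.3. The VTA holds the dopamine neurons that project to the forebrain, along with GABA and glutamate neurons, and myelinated tracts and the meninges of the ventral brain surface lie close to it.

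Reads on genes ranged from 27281902 to 71104049 over the 29 libraries, with group medians of 42802736 in saline H3.3 WT, 37049912 in heroin H3.3 WT, 34513499 in saline H3.3Q5A and 45039583 in heroin H3.3Q5A rats. The values carry Ensembl identifiers, and a symbol was available here for 1998 of the tested genes. Those 1998 come from the readable part of a table that is ordered by the saline H3.3 WT vs. saline empty difference, whose H3.3 WT libraries also enter the interaction, so they are not a representative sample of the genes. No gene of the lists for dopamine neurons, GABA neurons, opioid peptides and receptors, immune response, heat shock and stress hormone targets, ependyma and choroid plexus, neighboring nuclei, or histone H3 and linker histones could be matched to a symbol. The identity of the dissected tissue and the expression of the H3.3 vectors were therefore not checked here.

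The heroin effect differed between the vectors at 1814 DEx genes, defined by a Benjamini-Hochberg adjusted p under 0.05 in limma and a difference beyond 0.2 on the log2 scale. They make up 8.34% of the genes tested, with 1082 positive (4.98%) and 732 negative (3.37%). At an unadjusted p under 0.05 there were 4730 genes (21.8%), and the lowest adjusted p was 0.000359. Heroin vs. saline had opposite signs with the 2 vectors at nearly all DEx genes. Among the 1082 positive DEx genes, 1080 were lower after heroin in H3.3 WT rats and higher after heroin in H3.3Q5A rats, with median differences of -0.38 and 0.27. Among the 732 negative ones, 731 were higher after heroin in H3.3 WT and lower in H3.3Q5A rats, with medians of 0.19 and -0.24. The interaction also held a difference between the vectors among saline rats. At the positive genes H3.3Q5A minus H3.3 WT had a median of -0.30 in saline and 0.35 in heroin rats. At the negative genes these medians were 0.19 and -0.23. All these differences are parts of the interaction that selected the genes, so they describe its shape and are no separate evidence. Heroin vs. saline was larger in size in H3.3 WT than in H3.3Q5A rats at 797 positive genes (73.7%) and at 220 negative genes (30.1%).

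**Figure D1:**
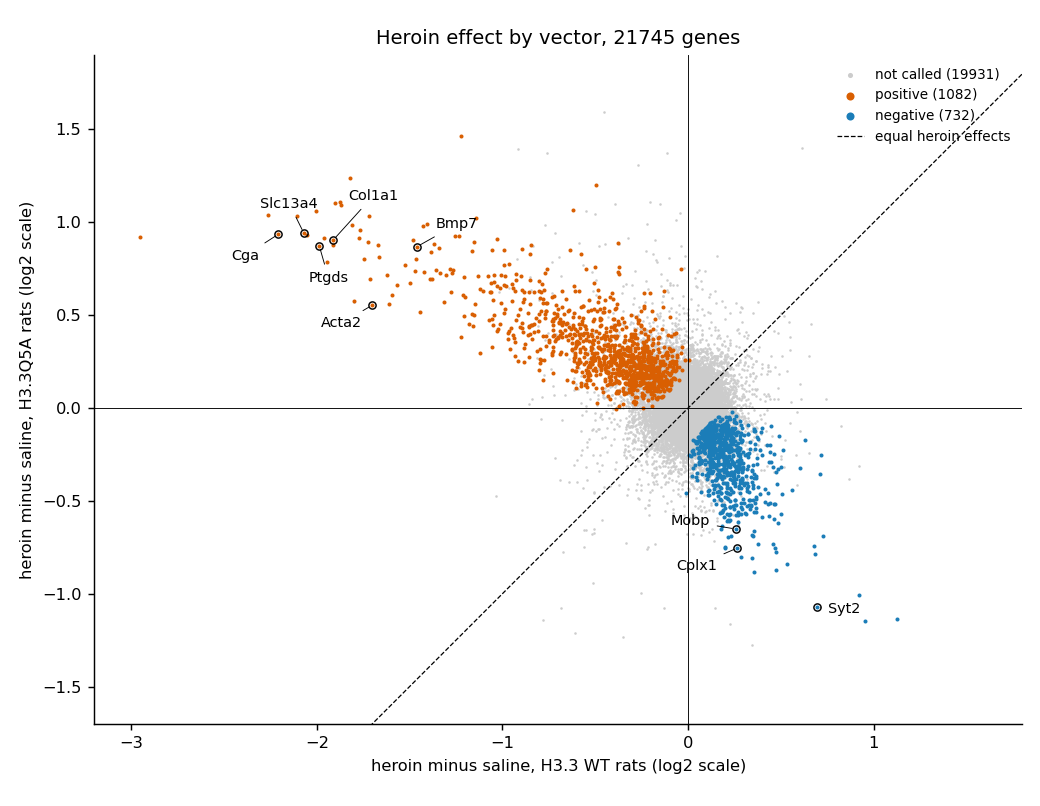
Heroin minus saline difference of each of the 21745 tested genes in H3.3 WT rats (horizontal axis) and H3.3Q5A rats (vertical axis), both on the log2 scale of the deposited values, with the dashed line where the differences are equal. The 1082 positive DEx genes (orange) lie up and to the left of the line and the 732 negative ones (blue) lie down and to the right, at distances that the selection itself sets, and some named genes are labelled.

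The positive DEx genes moved further. Their median difference of differences was 0.65 on the log2 scale, with 279 genes beyond 1 and 56 beyond 2, against a median of -0.43, 26 genes beyond 1 and 2 beyond 2 on the negative side. The median over all genes tested was 0.01. The negative DEx genes were the more strongly expressed, since 87.4% of them and 50.1% of the positive ones had a mean deposited value above the median of the genes tested. Within a vector, the values of individual rats overlapped at most of these genes. Saline and heroin H3.3 WT rats did not overlap at 40 positive and 5 negative DEx genes, against 59 (0.271%) of all genes tested. Saline and heroin H3.3Q5A rats did not overlap at 17 positive and 30 negative DEx genes, against 95 (0.437%) of all genes tested. No DEx gene was free of overlap with both vectors.

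Most of the genes with the lowest p could not be named. Of the 10 positive and 10 negative DEx genes with the lowest p, 3 and 0 had a symbol. ENSRNOG00000010362 headed the positive side, with mean deposited values of 10.21 ± 0.51 (SD) in saline H3.3 WT, 9.13 ± 0.30 in heroin H3.3 WT, 9.55 ± 0.23 in saline H3.3Q5A and 10.26 ± 0.51 in heroin H3.3Q5A rats, a difference of 1.79 (standard error 0.27, limma adjusted p = 0.000359). ENSRNOG00000006226 headed the negative side, with 11.62 ± 0.11, 11.84 ± 0.07, 11.85 ± 0.04 and 11.53 ± 0.17 in the same order and a difference of -0.53 (standard error 0.08, limma adjusted p = 0.000359). Among the 1998 named genes, 226 were DEx (11.3%), 135 positive and 91 negative.

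Tubb6, Gjb2 and Ifitm2 were the named genes among the 10 with the lowest p. Tubb6 (ENSRNOG00000018371, chr18:63130541-63140181 of rn6) encodes a beta-tubulin that is widely expressed outside neurons. Its deposited values were 8.36 to 9.50 (median 9.25) in saline and 7.96 to 8.56 (median 8.22) in heroin H3.3 WT rats, and 8.19 to 8.81 (median 8.51) in saline and 8.66 to 9.52 (median 9.12) in heroin H3.3Q5A rats. All 7 heroin H3.3 WT rats lay below the saline mean of their vector and all 8 heroin H3.3Q5A rats lay above theirs. The groups overlapped within each vector, while every heroin H3.3Q5A rat was above every heroin H3.3 WT rat. The difference of differences was 1.44 (standard error 0.22, limma adjusted p = 0.000359). Gjb2, a gap junction protein abundant in the meninges, had a difference of 1.91 (limma adjusted p = 0.000359), and Ifitm2, an interferon-inducible membrane protein, one of 1.32 (limma adjusted p = 0.000359). The next named genes by p, looked up after their values were seen, included Fbln1, a matrix glycoprotein (2.30), Slc6a20, a proline transporter (2.55), Bcat2, the mitochondrial enzyme of branched-chain amino acid breakdown (0.83), and Mrc2, a collagen uptake receptor (1.27), with limma adjusted p = 0.000368 for each.

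Markers of the meninges and fibroblasts were the named list with the highest median interaction. Of the 15 listed genes 5 could be named, and all 5 were positive DEx genes, with a median difference of 2.17 against 0.01 over all genes tested. The share of positive DEx genes among all tested was 4.98%. Slc13a4 (ENSRNOG00000011184, chr4:62797676-62840357 of rn6), a sulfate transporter of the meninges, showed the largest difference among named genes whose mean was above the median. Its deposited values were 9.12 to 11.71 (median 11.63) in saline H3.3 WT and 8.16 to 9.92 (median 9.17) in heroin H3.3 WT rats. In H3.3Q5A rats they were 8.79 to 10.74 (median 9.75) after saline and 8.46 to 12.06 (median 11.08) after heroin. H3.3 WT rats after saline and H3.3Q5A rats after heroin were thus the high groups, 7 of 7 heroin H3.3 WT rats lay below and 7 of 8 heroin H3.3Q5A rats above the saline mean of their vector, and the saline and heroin ranges overlapped with each vector. The medians correspond to 3063, 473, 757 and 2076 normalized reads in the order saline H3.3 WT, heroin H3.3 WT, saline H3.3Q5A and heroin H3.3Q5A. Heroin vs. saline was -2.07 in H3.3 WT and 0.94 in H3.3Q5A rats, a difference of 3.01 (95% interval 1.85 to 4.18, limma adjusted p = 0.000789). With the empty vector, Slc13a4 had means of 10.38 ± 0.42 (SD, n = 7) after saline and 9.14 ± 0.64 (SD, n = 8) after heroin.

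Ptgds, which encodes the prostaglandin D synthase secreted by meningeal cells and oligodendrocytes, was the most abundant of these markers. Its deposited values were 14.49 to 17.14 (median 16.71) in saline and 13.46 to 15.32 (median 14.30) in heroin H3.3 WT rats, and 14.28 to 16.04 (median 15.15) in saline and 14.13 to 17.27 (median 16.36) in heroin H3.3Q5A rats. The order of the group medians was the one seen for Slc13a4, with overlap inside each vector. The difference was 2.86 (standard error 0.53, limma adjusted p = 0.000589). Foxc2 (2.17, limma adjusted p = 0.000789) and Foxc1 (1.46, limma adjusted p = 0.00112), forkhead factors of the meningeal and vascular mesenchyme, and Mgp (1.60, limma adjusted p = 0.000589), an inhibitor of calcification, completed the list. Foxd1, another forkhead factor, looked up after its values were seen, was free of overlap between saline and heroin H3.3 WT rats, at 8.05 to 8.97 (median 8.54) and 7.04 to 8.01 (median 7.58), with a difference of 1.33 (limma adjusted p = 0.000631). These rats did not overlap at 59 (0.271%) of all genes tested. Of 9 named forkhead factors, grouped by symbol after the values were seen, 3 were positive DEx genes (4.98% of all tested) and 6 did not pass. Their median was 0.17. In bulk tissue, fewer cells of a type and less RNA per cell cannot be told apart.

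**Figure D2:**
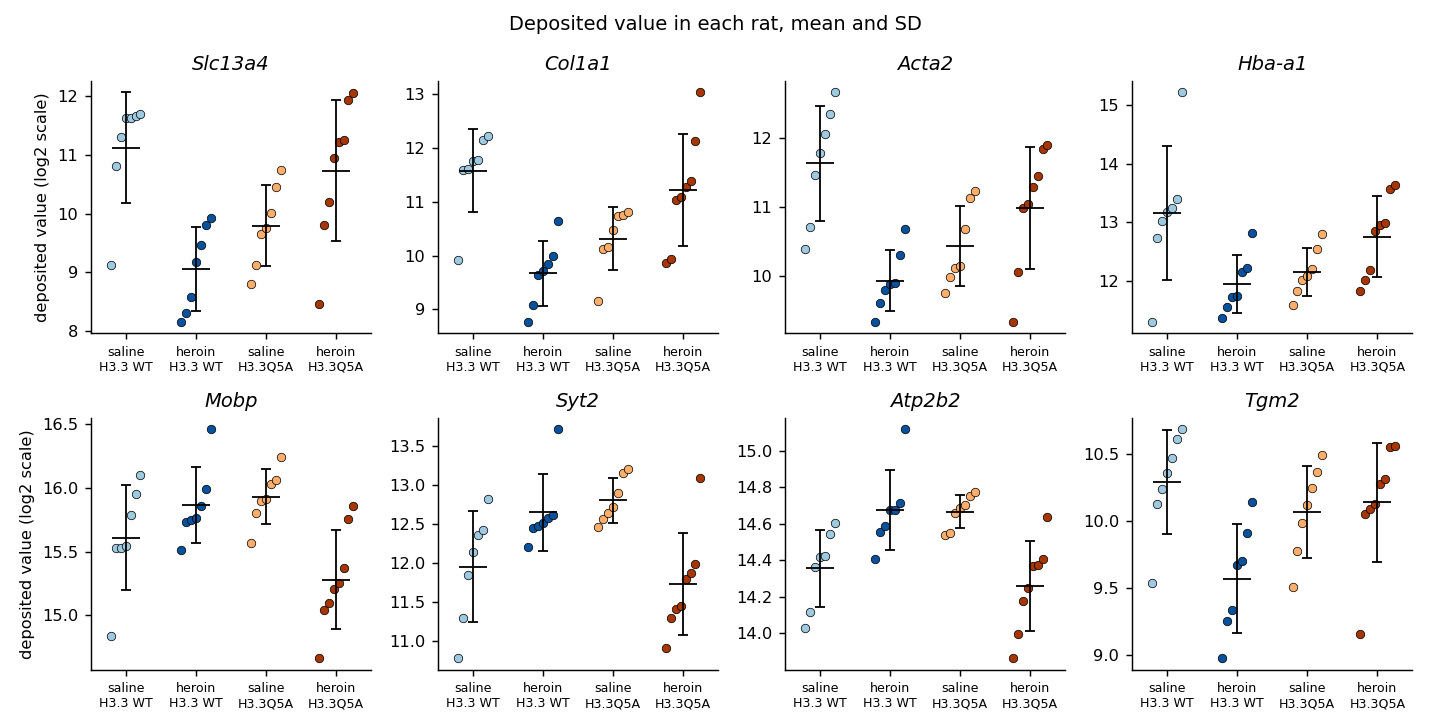
Deposited value (log2 scale) of 8 genes in each rat of the 4 groups, 1 point per rat, with the group mean and SD as a bar with whiskers. Slc13a4, Col1a1, Acta2 and Hba-a1 have their highest means in H3.3 WT rats after saline and H3.3Q5A rats after heroin, Mobp, Syt2 and Atp2b2 in H3.3 WT rats after heroin and H3.3Q5A rats after saline, and Tgm2, which is not DEx, is lowest in heroin H3.3 WT rats.

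Matrix genes followed the same order. Of 25 listed extracellular matrix genes 5 were named, 4 of them positive DEx genes (4.98% of all tested), with a median difference of 1.23. Col1a1 (ENSRNOG00000003897, chr10:82745800-82762789 of rn6), the main fibrillar collagen chain of fibroblasts, ranged over 9.92 to 12.22 (median 11.76) in saline H3.3 WT, 8.77 to 10.64 (median 9.71) in heroin H3.3 WT, 9.15 to 10.81 (median 10.47) in saline H3.3Q5A and 9.87 to 13.03 (median 11.18) in heroin H3.3Q5A rats. The groups overlapped within each vector, with 7 of 7 heroin H3.3 WT rats below and 6 of 8 heroin H3.3Q5A rats above the saline mean. Its difference was 2.82 (95% interval 1.75 to 3.88, limma adjusted p = 0.000638). Loxl1, which cross-links elastin (1.41), Mmp14, a membrane-bound protease that activates other proteases (1.23), and Fn1, fibronectin (0.93), were positive with limma adjusted p of 0.00529, 0.00694 and 0.0132. Mmp2, a gelatinase, had a difference of 0.14 and did not pass (limma adjusted p = 0.711). In a wider family of 22 named matrix proteins, proteases and integrins, put together by symbol after the values were seen, 13 were positive and 0 negative DEx genes, with a median of 0.92. Of all genes tested 4.98% were positive and 3.37% negative, and of the named genes 11.3% were DEx in either direction.

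Of 17 named genes of the BMP and TGF-beta pathways, grouped by symbol after the values were seen, 5 were positive DEx genes and 12 did not pass, with a median of 0.32, against 4.98% positive DEx genes of all tested. In these pathways secreted BMP and TGF-beta dimers bind receptor kinases that phosphorylate SMAD proteins, and Id and inhibitory SMAD genes are targets. The ligand gene Bmp7 had values of 7.57 to 9.62 (median 9.33) in saline H3.3 WT, 7.04 to 8.11 (median 7.73) in heroin H3.3 WT, 7.48 to 8.73 (median 7.98) in saline H3.3Q5A and 7.40 to 10.00 (median 9.08) in heroin H3.3Q5A rats. H3.3 WT rats after saline and H3.3Q5A rats after heroin again had the higher medians, and the ranges overlapped with each vector. The difference was 2.33 (standard error 0.41, limma adjusted p = 0.000417). Bmp6, another ligand (heroin vs. saline -1.36 in H3.3 WT and 0.74 in H3.3Q5A rats), the target Id3 (1.21), the secreted antagonist Nbl1 (0.94) and Ltbp4, which holds latent TGF-beta in the matrix (0.64), were also positive, with limma adjusted p from 0.000368 to 0.0282. Other ligands, Bmp4 (0.20, limma adjusted p = 0.567) and Tgfb3 (0.54, limma adjusted p = 0.0813), and the inhibitors Nog (0.13, limma adjusted p = 0.538) and Smad6 (0.47, limma adjusted p = 0.108) did not pass. The receptor genes Bmpr1b (0.31) and Tgfbr2 (0.08), the signal transducer Smad1 (-0.05) and the inhibitory Smad7 (-0.21) did not pass either.

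Contractile and other muscle genes, not all of them particular to smooth muscle, formed a family in which every member was DEx. All 15 named genes, chosen by symbol after the values were seen, were positive, from 0.55 for Flnc to 2.38 for Tagln with a median of 1.38, where 4.98% of all genes tested were positive and 11.3% of the named genes were DEx in either direction. Because the family was put together with its values in view, the count is a description. Acta2, the smooth muscle actin of vessel walls, ran over 10.40 to 12.67 (median 11.79) in saline H3.3 WT and 9.34 to 10.69 (median 9.88) in heroin H3.3 WT rats, and over 9.75 to 11.24 (median 10.15) in saline H3.3Q5A and 9.34 to 11.91 (median 11.17) in heroin H3.3Q5A rats. Saline and heroin rats overlapped with both vectors, and 7 of 7 heroin H3.3 WT and 6 of 8 heroin H3.3Q5A rats lay on the side of the saline mean that the group difference gives. The difference was 2.26 (95% interval 1.29 to 3.22, limma adjusted p = 0.00187). Actg2 and Cnn1, an actin and an actin-binding protein of smooth muscle, had few reads, from 5 to 600 and from 6 to 824 per library, and differences of 2.21 and 2.17. Des, the intermediate filament desmin (1.96), Myl9, a myosin light chain (1.60), Mylk, the kinase that phosphorylates it (1.22), and Flna, an actin cross-linker (1.38), lay between. Reads that aligned to more than 1 place were removed before counting, so the values of near-identical actin and globin genes are uncertain.

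Of 18 listed endothelial and pericyte markers 6 were named and 4 were positive DEx genes, Acta2 and Tagln among them, with a median of 0.63. Cdh5, the cadherin of endothelial junctions (0.78, limma adjusted p = 0.0129), and Pdgfrb, the pericyte growth factor receptor (0.48, limma adjusted p = 0.0425), were the others. Kdr, an endothelial VEGF receptor (0.41), and Cspg4, a proteoglycan of pericytes and oligodendrocyte precursors (-0.07), did not pass. Among blood genes, 5 of the 6 named were positive, with a median of 1.51. For comparison with both lists, 4.98% of all genes tested were positive DEx genes. Hba-a1, an alpha globin, had values of 11.30 to 15.21 (median 13.17) in saline H3.3 WT, 11.36 to 12.82 (median 11.74) in heroin H3.3 WT, 11.58 to 12.80 (median 12.08) in saline H3.3Q5A and 11.83 to 13.64 (median 12.90) in heroin H3.3Q5A rats. These groups overlapped widely, and saline H3.3 WT rats alone spanned the range of every other group. Its difference was 1.82 (limma adjusted p = 0.016). Alas2, the heme synthesis enzyme of red cells, was positive too (1.11, limma adjusted p = 0.0331). With the library of conflicting labels counted as saline H3.3 WT, 2 of the 6 blood genes remained DEx.

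Pituitary genes were detected at low and uneven levels. Cga, the alpha subunit shared by pituitary glycoprotein hormones, had from 0 to 1545 reads per library. Its deposited values were 6.43 to 10.08 (median 8.37) in saline H3.3 WT, 5.73 to 6.80 (median 5.94) in heroin H3.3 WT, 5.95 to 9.24 (median 6.81) in saline H3.3Q5A and 6.12 to 9.64 (median 8.35) in heroin H3.3Q5A rats, where 5.73 stands for no read. The groups overlapped within each vector. The difference of 3.14 (95% interval 1.08 to 5.21) had a limma adjusted p of 0.0462, and Cga passed in 8 of 29 fits that each left out 1 rat. Tshb, the thyrotropin beta subunit, had a difference of 1.14 and did not pass (limma adjusted p = 0.341).

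On the negative side, 5 of the 7 named genes on the lists for presynaptic release and action potential channels were negative DEx genes, against 3.37% of all genes tested, and 0 of the 7 passed with the myelin mean of each rat as a covariate. Syt2 (ENSRNOG00000004756, chr13:51534024-51578052 of rn6), the calcium sensor of fast synchronous release, had the largest negative difference among named genes whose mean was above the median. Its deposited values were 10.78 to 12.82 (median 12.14) in saline and 12.21 to 13.71 (median 12.50) in heroin H3.3 WT rats. In H3.3Q5A rats they were 12.45 to 13.20 (median 12.71) after saline and 10.91 to 13.09 (median 11.62) after heroin. Here the high groups were H3.3 WT after heroin and H3.3Q5A after saline, 7 of 7 heroin H3.3 WT rats lay above and 7 of 8 heroin H3.3Q5A rats below the saline mean of their vector, and the ranges overlapped with each vector. The medians correspond to 4396, 5700, 6609 and 3068 normalized reads in the order saline H3.3 WT, heroin H3.3 WT, saline H3.3Q5A and heroin H3.3Q5A. Heroin vs. saline was 0.69 in H3.3 WT and -1.07 in H3.3Q5A rats, a difference of -1.77 (95% interval -2.60 to -0.93, limma adjusted p = 0.00488), and it passed in 29 of 29 fits that left out 1 rat. With the mean of the myelin genes of each rat as a covariate it was -0.75 (limma adjusted p = 0.167), and with the mean of the meningeal markers -0.67 (limma adjusted p = 0.92), so the call was lost with both. No gene passed with the meningeal covariate, where the lowest limma adjusted p over all genes was 0.92, so that loss is not particular to Syt2. With the myelin covariate 67 negative genes were DEx over all genes tested, against 732 without it. The loss with that covariate is therefore not particular to Syt2 or to these lists either. In empty-vector rats Syt2 had means of 11.44 ± 0.54 (SD, n = 7) after saline and 12.58 ± 0.68 (SD, n = 8) after heroin.

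Of the 3 named genes on the list for presynaptic vesicle release, 2 were negative DEx genes. Cplx1, a complexin that clamps and triggers the fusion machinery, ranged over 13.85 to 15.10 (median 14.63), 14.41 to 15.59 (median 14.80), 14.59 to 15.41 (median 14.95) and 13.45 to 15.13 (median 14.18) in saline H3.3 WT, heroin H3.3 WT, saline H3.3Q5A and heroin H3.3Q5A rats. All these groups overlapped, and heroin H3.3Q5A rats had the lowest median. Its difference was -1.02 (standard error 0.33, limma adjusted p = 0.0431), which passed in 13 of 29 fits that left out 1 rat (adjusted p 0.0115 to 0.0957). Syn1, a vesicle-tethering protein present at most synapses, had a difference of -0.19 (95% interval -0.44 to 0.07, limma adjusted p = 0.423) and did not pass. In a wider family of 9 named vesicle release genes, grouped by symbol after the values were seen, 3 were negative DEx genes, against 3.37% of all genes tested. The other 6 did not pass, and the median of the family was -0.14.

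Of 4 named genes on the list for action potential channels, 3 were negative DEx genes. Atp2b2 (ENSRNOG00000030269, chr4:145703045-146016325 of rn6), a plasma membrane pump that clears calcium from neurons, had values of 14.03 to 14.60 (median 14.42) in saline H3.3 WT, 14.41 to 15.12 (median 14.67) in heroin H3.3 WT, 14.54 to 14.77 (median 14.69) in saline H3.3Q5A and 13.86 to 14.64 (median 14.31) in heroin H3.3Q5A rats. Every heroin H3.3 WT rat lay above and every heroin H3.3Q5A rat below the saline mean of its vector, although the ranges overlapped. The difference was -0.72 (standard error 0.15, limma adjusted p = 0.00204), the lowest adjusted p of a named negative gene. Hcn2, a pacemaker channel subunit (-0.83, limma adjusted p = 0.0235), was DEx in 26 of 29 fits with 1 rat left out and had adjusted p of 0.0521, 0.053 and 0.0506 without saline H3.3 WT rat 4, heroin H3.3 WT rat 11 and heroin H3.3Q5A rat 25. Scn3a, a pore-forming sodium channel subunit, had a difference of 0.26 (limma adjusted p = 0.305) and did not pass. Thy1, a surface protein of projection neurons and the 1 named gene of 8 on the list for such neurons, was negative (-0.43, limma adjusted p = 0.00945). Among genes chosen after their values were seen, Cabp7, a calcium-binding protein (-1.15, limma adjusted p = 0.0129), and Kcnj11, the pore of ATP-sensitive potassium channels (-0.51, limma adjusted p = 0.0186), were negative. Kcna5, a potassium channel gene chosen in the same way, was positive (0.80, limma adjusted p = 0.0461) and passed in 10 of 29 fits. Of 9 named ion channel genes, grouped by symbol after the values were seen, 4 were negative and 1 positive DEx genes, and 4 did not pass. Of all genes tested, 3.37% were negative and 4.98% positive DEx genes.

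Myelin genes were the other negative group. Of 22 listed genes 16 were named, all 16 had a difference below 0, and 9 were negative DEx genes. Their median was -0.79 against 0.01 over all genes tested, of which 3.37% were negative DEx genes. Heroin vs. saline was above 0 for 15 of the 16 in H3.3 WT rats (median 0.20) and below 0 for 16 of the 16 in H3.3Q5A rats (median -0.57). Mobp (ENSRNOG00000018700, chr8:128824507-128850358 of rn6), a structural protein of compact myelin, ranged over 14.84 to 16.10 (median 15.54) in saline H3.3 WT and 15.51 to 16.46 (median 15.77) in heroin H3.3 WT rats, and over 15.57 to 16.25 (median 15.91) in saline H3.3Q5A and 14.66 to 15.86 (median 15.23) in heroin H3.3Q5A rats. All 8 heroin H3.3Q5A rats lay below the saline mean and 6 of 7 heroin H3.3 WT rats lay above theirs, with overlap in both cases. The difference was -0.91 (95% interval -1.42 to -0.39, limma adjusted p = 0.0198). Mbp, which encodes a main protein of the myelin sheath, had a difference of -0.82 (limma adjusted p = 0.0467). Opalin, a surface protein of myelinating oligodendrocytes (-0.86), Ugt8 and Gal3st1, which make galactolipids and sulfatide (-0.83 and -0.74), Gjb1, a connexin of oligodendrocytes (-0.83), and Pllp, a myelin membrane proteolipid (-0.74), were also DEx. Mag, an adhesion protein between myelin and axon, had a difference of -0.82 and an adjusted p of 0.0532, and Myrf, the transcription factor that turns on myelin genes, one of -0.75 and 0.0504.

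The calls of myelin genes lay close to the threshold. With each rat left out in turn, 1 to 14 of the 16 were DEx. The count was 14 without heroin H3.3Q5A rat 21 and 1 to 5 without saline H3.3 WT rats 50, 44, 23 and 4, saline H3.3Q5A rats 47, 46, 32, 30 and 28, heroin H3.3 WT rats 38, 20 and 11, or heroin H3.3Q5A rats 43, 39, 37, 26, 25 and 24. It was 2 with no gene filter, 2 with the log2 read total as a covariate, 5 after quantile normalization and 14 after median centring or with residual factors. Of 7 named genes of the oligodendrocyte lineage and its precursors, all had a difference below 0 and 1 was DEx, where 3.37% of all genes tested were negative DEx genes. Olig2, a lineage transcription factor, had a difference of -0.67 (limma adjusted p = 0.0192), which passed in 29 of 29 fits with 1 rat left out. Olig1 (-0.59, 0.0608), Sox10 (-0.59, 0.17) and the precursor gene Gpr17 (-0.24, 0.449) did not pass in limma. Car2, the carbonic anhydrase of oligodendrocytes (-0.83, limma adjusted p = 0.0136), and Gpr37, a receptor of the same cells (-0.79, limma adjusted p = 0.0206), were negative DEx genes that were chosen after their values were seen.

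**Figure D3:**
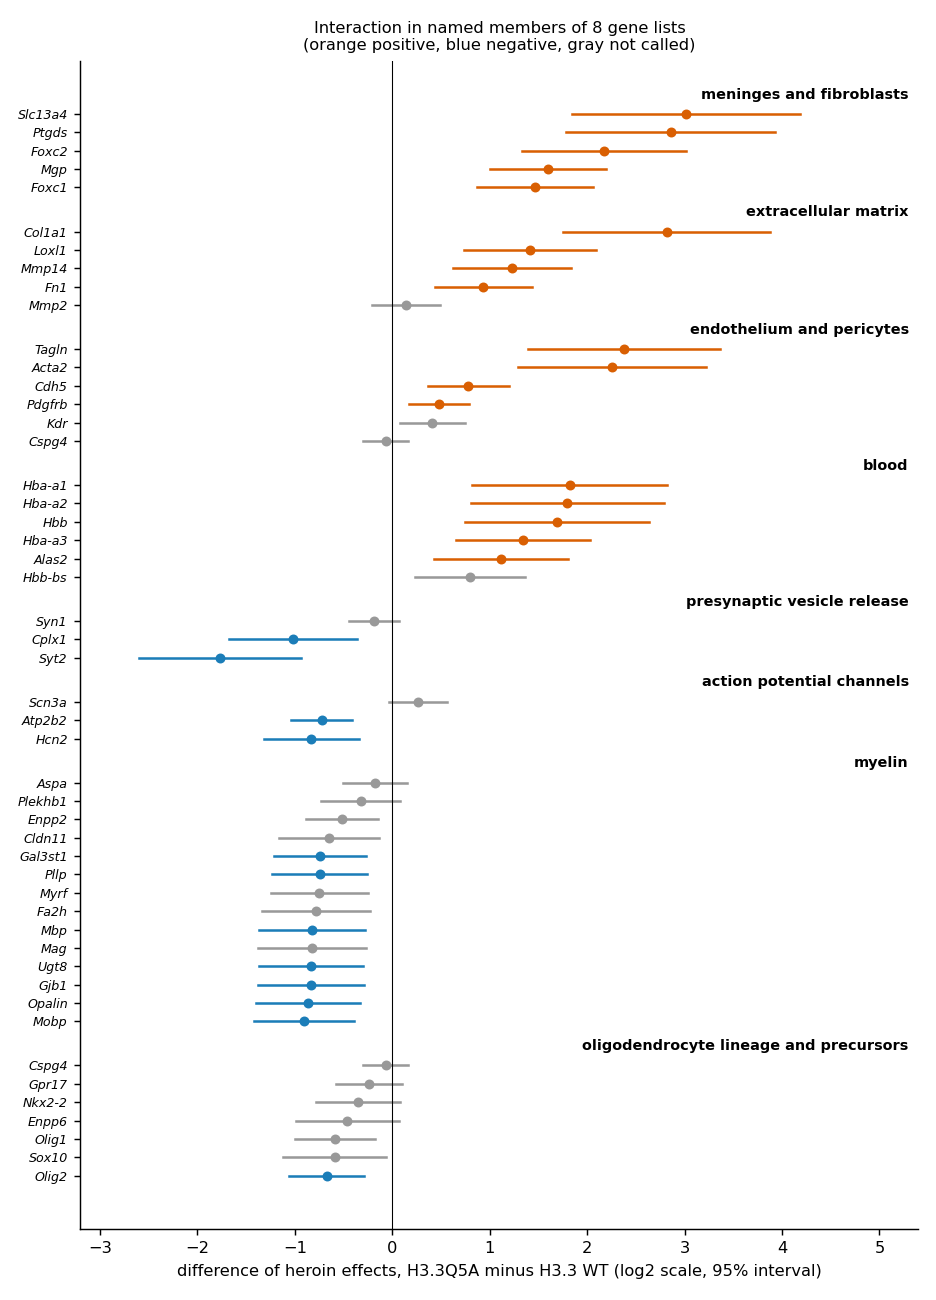
Difference of heroin effects, H3.3Q5A minus H3.3 WT, with its 95% interval on the log2 scale for named members of 8 lists (orange positive DEx, blue negative DEx, gray not DEx). The estimates of all 5 meningeal markers lie above 1, those of the plotted myelin genes lie below 0, and the 7 myelin genes in gray have intervals that overlap those in blue.

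Tgm2 (ENSRNOG00000012956, chr3:154597167-154627257 of rn6), which encodes the enzyme that dopaminylates H3, was not DEx. Its deposited values were 9.54 to 10.69 (median 10.36) in saline H3.3 WT, 8.98 to 10.14 (median 9.67) in heroin H3.3 WT, 9.51 to 10.50 (median 10.12) in saline H3.3Q5A and 9.16 to 10.56 (median 10.20) in heroin H3.3Q5A rats. Heroin H3.3 WT rats were the low group, with 7 of 7 below the saline mean, and every pair of groups overlapped. Heroin vs. saline was -0.72 in H3.3 WT and 0.07 in H3.3Q5A rats, a difference of 0.79 (95% interval 0.21 to 1.37, limma adjusted p = 0.0768). Tgm2 passed in 2 of 29 fits that left out 1 rat (limma adjusted p 0.0213 to 0.138). These were the fits without heroin H3.3Q5A rat 24 (0.0213) and without saline H3.3 WT rat 27 (0.0263). Tgm2 also passed in limma with 1 residual factor (adjusted p = 0.021), with array weights (0.0438) and with the library of conflicting labels counted as saline H3.3Q5A (0.0475). With the marker means as covariates, which were chosen after seeing the data, the Tgm2 difference was -0.15 (adjusted p = 0.956) for the meningeal markers and 1.17 (adjusted p = 0.02) for the myelin genes. Of the other 4 named genes on the list for H3.3 and histone dopaminylation, Kdm5b, a demethylase of the neighboring lysine, was a positive DEx gene (0.25, limma adjusted p = 0.0307). Saline and heroin H3.3Q5A rats did not overlap for Kdm5b, at 11.50 to 11.82 (median 11.70) and 11.87 to 12.07 (median 11.92), while H3.3 WT rats had 11.61 to 11.89 (median 11.85) after saline and 11.69 to 11.89 (median 11.82) after heroin. Saline and heroin H3.3Q5A rats were free of overlap at 95 (0.437%) of all genes tested. Kdm5b passed in 21 of 29 fits with 1 rat left out and had a difference of 0.14 after median centring, where it did not pass (limma adjusted p = 0.213). Kdm5a, a related demethylase (-0.14), Rbbp5, a subunit of lysine methyltransferase complexes (-0.02), and Cabin1, a subunit of an H3.3 chaperone (0.08), did not pass. H3f3a and H3f3b, the genes of H3.3, could not be matched to an identifier.

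The other lists held few named genes. On the list for oxidative phosphorylation 1 of 3 was negative, Cox5a, a subunit of cytochrome oxidase (-0.28, limma adjusted p = 0.0373, passing in 17 of 29 fits with 1 rat left out), and on that for cholesterol synthesis 1 of 3, Mvk, mevalonate kinase (-0.35, limma adjusted p = 0.0141). Over all genes tested the share of negative DEx genes was 3.37%. Cox5a did not pass after quantile normalization (limma adjusted p = 0.0799) or with the read total as a covariate (limma adjusted p = 0.0864). For Mvk, saline and heroin H3.3Q5A rats did not overlap, at 10.24 to 10.47 (median 10.36) and 9.92 to 10.22 (median 10.07), as for 0.437% of all genes tested. None of the named members passed on the lists for cytokine receptors (3 genes, median 0.10), glutamate neurons (2 genes, 0.02), dopamine signaling (Adcy5, 0.05), immediate early genes (Ier2, 0.15), astrocytes (Aldoc, -0.29), microglia (Cx3cr1, -0.23), ribosome (Rpl13, 0.09) and cilia (2 genes, 0.20). Outside the ribosome list, Rps28, looked up after its values were seen, was a positive DEx gene (0.24, limma adjusted p = 0.0112). Rps18l1 (0.22, limma adjusted p = 0.0933) and Rpl10l (-0.02, limma adjusted p = 0.965) did not pass. In 32 named splicing and RNA processing factors, grouped by symbol after the values were seen, 0 passed, and in 59 zinc finger factors 1 did, against 8.34% of all genes tested and 11.3% of the named genes.

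Levels of the markers moved with the same groups as the DEx genes. Many of the markers are DEx genes themselves, 5 of 5 meningeal, 5 of 6 blood, 4 of 6 endothelial and 9 of 16 myelin genes. Their levels therefore describe the interaction again and are no separate evidence. Summed over the 5 named meningeal and fibroblast markers, normalized reads ran from 24365 to 151325 in saline H3.3 WT, 12049 to 43188 in heroin H3.3 WT, 21209 to 70932 in saline H3.3Q5A and 19140 to 165351 in heroin H3.3Q5A rats, and none was at 0 in any of these libraries. With the empty vector the same sum ran from 41325 to 80852 after saline and 10145 to 50238 after heroin. Its medians after saline were 113532 with H3.3 WT, 38926 with H3.3Q5A and 52014 with the empty vector. After heroin they were 21912, 88527 and 25598. The 16 named myelin genes summed to 534891 to 1298336, 802182 to 1607083, 891456 to 1337451 and 467067 to 1135359 in saline H3.3 WT, heroin H3.3 WT, saline H3.3Q5A and heroin H3.3Q5A rats. H3.3 WT rats after saline and H3.3Q5A rats after heroin reached the highest meningeal sums, and heroin H3.3 WT rats the highest myelin sum. The 6 named endothelial and pericyte markers summed to 8265 to 20981, 5964 to 9654, 7532 to 11451 and 7204 to 16226, and the 6 blood genes to 5640 to 79590, 6282 to 15331, 6504 to 17190 and 8498 to 28992. For the pituitary genes the sums were 41 to 1397, 14 to 74, 16 to 746 and 22 to 802, with Cga at 0 in a heroin H3.3 WT library. For these 5 lists the saline and heroin ranges overlapped with each vector. Aldoc, the 1 named astrocyte marker of 14 listed, was the exception among the marker lists, at 16.05 to 16.15 (median 16.10) in saline and 15.72 to 15.97 (median 15.89) in heroin H3.3Q5A rats. These rats did not overlap at 95 (0.437%) of all genes tested, and Aldoc was not DEx (-0.29, limma adjusted p = 0.0635).

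With the mean deposited value of the 5 meningeal and fibroblast markers of each rat as a covariate, an alternative chosen after the data were examined, limma called 0 DEx genes, and 986 genes had an unadjusted p under 0.05. No other tool was run with this covariate. With the mean of the 16 myelin genes as the covariate 507 genes were DEx, 440 positive and 67 negative, against 1082 and 732 without it. The median difference of the named vesicle release genes then went from -1.02 to -0.16 and that of the action potential channel genes from -0.69 to -0.22, and 0 of either list passed. All 5 meningeal markers remained positive DEx genes with the myelin mean as the covariate. Both means are made of genes that themselves differ in the interaction, so the covariate takes up a part of the difference being tested. How far the share of meningeal, vascular or myelinated tissue in the punches set the DEx genes cannot be told apart from a change of these genes within their cells.

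**Figure D4:**
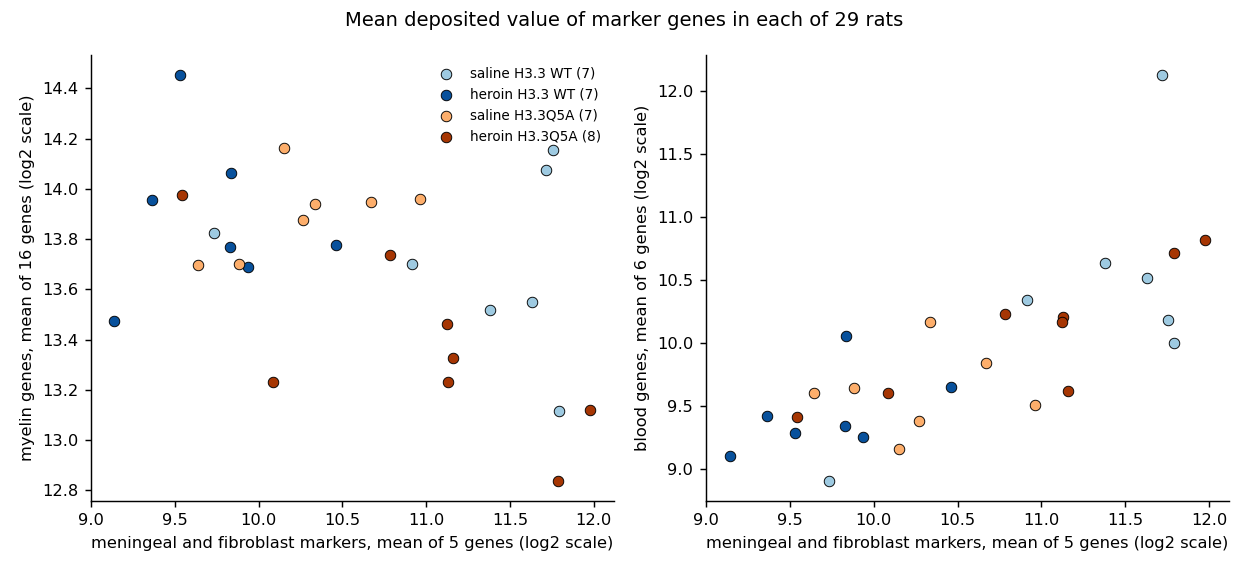
Mean deposited value (log2 scale) of the 5 named meningeal and fibroblast markers (horizontal axis) against that of the 16 named myelin genes (left) and the 6 named blood genes (right) in each of the 29 rats, 1 point per rat colored by group. Heroin H3.3 WT rats sit at 9.14 to 10.46 on the meningeal axis and saline H3.3 WT rats at 9.73 to 11.79, and the H3.3Q5A groups overlap with 9.64 to 10.96 after saline and 9.54 to 11.98 after heroin.

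The number of DEx genes and its split by direction depended on the scaling of the libraries. Median centring shifted the median difference over all genes by -0.11 on the log2 scale and gave 3434 DEx genes, of which 22.8% were positive, against 59.6% of the 1814. Quantile normalization gave 1621 DEx genes with 53% positive, and limma-voom on reads recovered from the deposited values gave 1877 with 56.9% positive, 1739 of them shared with the 1814. Across fits that each left out 1 of the 29 rats the count ran from 1243 without heroin H3.3Q5A rat 25 to 2548 without heroin H3.3Q5A rat 21, and 1120 genes were DEx in every such fit, 757 positive and 363 negative.

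**Figure D5:**
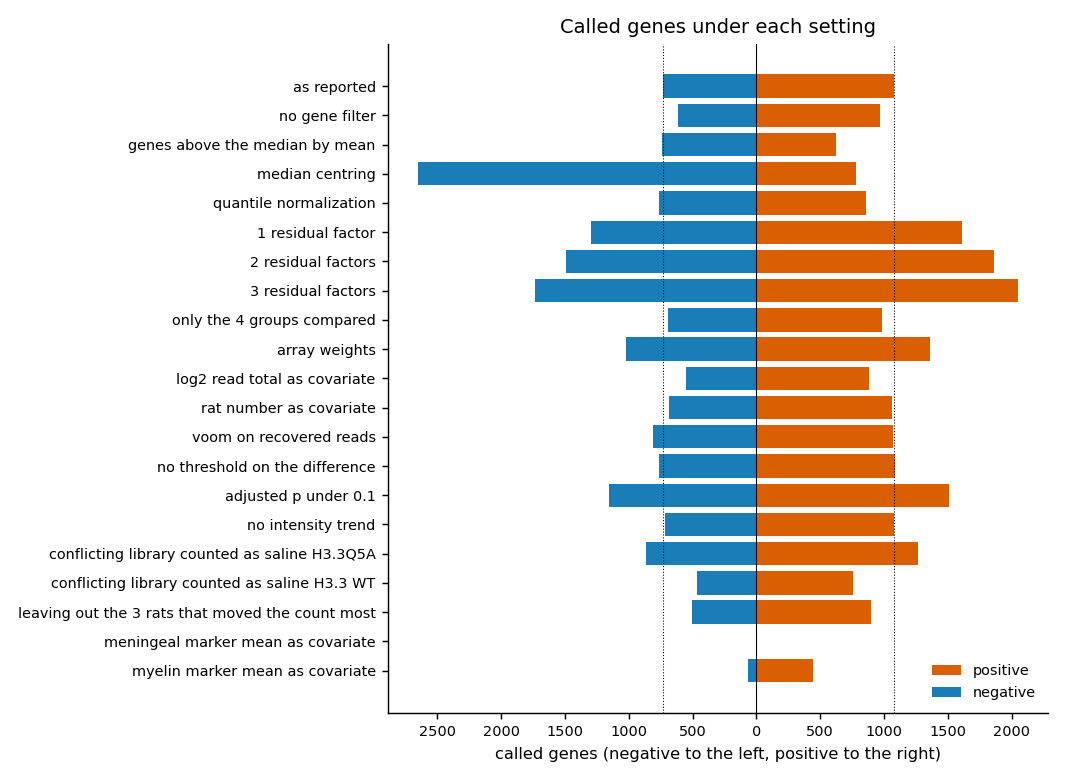
Number of DEx genes for the interaction under each setting, positive genes to the right and negative genes to the left of 0, with dotted lines at the 1082 and 732 reported. The count is 0 with the meningeal marker mean as a covariate, and the positive share falls to 22.8% after median centring.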

How the data were processed

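RNA-seq libraries from the VTA of single rats were aligned by the authors with HISAT2 2.1.0 to Rnor_6.0 and counted with featureCounts 2.0.1 after removal of multi-aligned reads. The authors deposited counts after the variance stabilizing transformation of DESeq2 2.11.40.6, so the deposited values are on a log2 scale, and at low read numbers a difference is smaller than the log2 fold change. The study's own tests used residual factors whose number is not given in the sources used here, and the deposited values contain none. Undoing the transformation gave whole reads for 100% of values (tolerance 0.01 read), from which depth was taken. The read totals were 24308953 to 71104049 over all 45 libraries, and precision was judged from the spread between rats.

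Group means of 44 libraries, without the library of conflicting labels, were fitted in limma 3.58.1 (R 4.3.3) with an intensity trend. The interaction was tested over 21745 genes with Benjamini-Hochberg adjustment, and DEx genes had an adjusted p under 0.05 and a difference beyond 0.2. Intervals are at 95%. The fit was tested on simulated data with independent noise for each gene and library. Genes that vary together between rats were not simulated, so that test does not show how well the DEx calls are calibrated. No pair of the 91 pairs of libraries within the 4 groups was a duplicate. Separate animals are the replicates.

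Symbols and rn6 positions were taken from identifier columns of a supplementary table of the study. Genes were named by rule: the 10 DEx genes of each direction with the lowest p, the 5 with the largest difference among those above the median mean value, 3 of each list, Tgm2 and the H3.3 genes. Those named beyond it were chosen after their values were seen. The members and lists were chosen with earlier results of these data known. Alternatives changed the gene filter, scaling, residual factors, libraries, weights, covariates, thresholds and test. Some list members that enter the counts are not reported here by name or plotted.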

Additional observations from a re-analysis of the deposited data

Results flagged for a closer look

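The effect of heroin differed between H3.3Q5A and H3.3 WT rats at 1814 genes by the test of the difference itself. Single rats stood apart from the rest of their group in 6 of the 44 groups of values examined for 11 genes, where chance gives about 1 in 20, or 2.2. The same rats recur across genes that move together, so these groups of values are not independent. Setting 6 against 2.2 is therefore no test of an excess. In saline H3.3 WT rat 27, Slc13a4 was at 9.12 against 10.82 to 11.71 in the other rats of the group, and Col1a1 was at 9.92 against 11.59 to 12.22. In saline H3.3Q5A rat 33, Col1a1 was at 9.15 against 10.12 to 10.81. Heroin H3.3 WT rat 11 had the high values, with Syt2 at 13.71 against 12.21 to 12.61 and Atp2b2 at 15.12 against 14.41 to 14.71. Tgm2 was at 9.16 in heroin H3.3Q5A rat 24 against 10.05 to 10.56.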

How the results depend on the processing

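The count of 1814 DEx genes became 3434 after median centring, and 2903, 3354 and 3787 with 1, 2 and 3 residual factors. It was 507 with the myelin mean and 0 with the meningeal mean as a covariate, both chosen after seeing the data. With the latter, 4 of the 6 endothelial and 2 of the 5 matrix genes had a difference below 0, as did Tgm2 (-0.15). The 5 meningeal genes make up that covariate, so their differences average 0 by construction and their signs are no result. Among DEx genes followed one by one the difference with the meningeal covariate turned below 0 for Slc13a4 (-0.073), Myl9 (-0.045), Acta2 (-0.099), Slc22a8 (-0.15), Igfbp2 (-0.27), Cdh5 (-0.13) and Zic2 (-0.28), in a fit whose covariate includes Slc13a4. Leaving out 1 rat gave 1243 (without heroin H3.3Q5A rat 25) to 2548 (without heroin H3.3Q5A rat 21), with 827 to 1404 positive and 403 to 1144 negative. Without heroin H3.3Q5A rats 21 and 25 and heroin H3.3 WT rat 11, chosen after seeing the data, it was 1401. The conflicting library counted as saline H3.3Q5A gave 2131 and as saline H3.3 WT 1224. The cause of these shifts was not tested. Of the 2 DEx genes for vesicle release, 1 was left in 16 of the 29 fits without a rat (saline H3.3 WT 44, 23 and 4, saline H3.3Q5A 47, 33, 32, 30 and 28, heroin H3.3Q5A 43, 37, 26 and 25, and rats 51, 38, 11 and 3 of heroin H3.3 WT), and of the 3 for action potential channels 1 was left without saline H3.3 WT rat 4, heroin H3.3 WT rat 11 or heroin H3.3Q5A rat 25. A second oligodendrocyte lineage gene passed without saline H3.3 WT rats 49 or 8, heroin H3.3 WT rats 9 or 3, or heroin H3.3Q5A rats 40 or 21. No paired analysis was possible because the 4 groups compared share no rat numbers. Few reads limit Cga, which did not pass in voom.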

Other observations

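The saline library with conflicting labels had mean deposited values of 9.98 for the meningeal and fibroblast markers, 13.71 for the myelin genes and 9.02 for the blood genes. It had Slc13a4 at 9.35, Syt2 at 13.14 and Tgm2 at 9.69.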
